A study of Homo sapiens with 2 samples.

Results

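The enzymes of lower glycolysis and their red cell forms were followed in K562 cells that had become resistant to nilotinib. The group holds 10 genes, TPI1, GAPDH, PGK1, PGAM1, BPGM, ENO1, ENO2, ENO3, PKM and PKLR, taken by name from the 20046 genes that the platform annotation gives to the array. They were represented by 24 of its 47323 probes. K562 is an established line from chronic myeloid leukemia whose growth depends on the kinase BCR/ABL, and nilotinib is a second-generation inhibitor of that kinase. NilotinibR cells had been passaged in 0.1, 0.3 and then 1 µM nilotinib over 3 months and grew in 1 µM of the drug, whereas parental cells were carried alongside without it. Resistance and the presence of the drug thus went together, and their parts in a difference cannot be told apart. Whether the resistant cells are a clone or a population was left unstated for this culture. Total RNA of the parental and of the nilotinibR cells was hybridized to 1 array each of the HumanHT-12v4 Expression BeadChip type. With 1 array per condition there was no replicate and no test, and each difference below compares these arrays and not the conditions in general.

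Lower glycolysis is the stretch of the pathway that returns energy. Triose phosphate isomerase (TPI1) makes the second triose available, GAPDH oxidizes it, phosphoglycerate kinase (PGK1) makes ATP, phosphoglycerate mutase (PGAM1) moves the phosphate, enolase removes water and pyruvate kinase makes the last ATP together with pyruvate. Several steps have isozymes: ENO1 is the enolase of most cells, ENO2 that of neurons and ENO3 that of muscle, while PKM is the pyruvate kinase of most proliferating cells and PKLR that of liver and red cells. BPGM belongs to the red cell branch that leaves the pathway between GAPDH and PGAM1 and makes 2,3-bisphosphoglycerate, the metabolite that loosens the hold of hemoglobin on oxygen.

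All 6 enzymes of the common route (TPI1, GAPDH, PGK1, PGAM1, ENO1 and PKM) were at least 1.5-fold lower in nilotinibR than in parental K562 cells, while both red cell enzymes (BPGM and PKLR) were at least 1.5-fold higher. The enolases of other tissues, ENO2 and ENO3, passed this fold in neither direction. After normalization the size ran from 1.89-fold for GAPDH to at least 6.38-fold for PKM among the lower genes, and PKLR and BPGM were at least 2.32-fold and at least 2.07-fold higher. Here and below, "at least" stands where a reading was at background, and it holds only for values normalized with an offset of 50. Over other ways of processing the arrays the smallest values were 4.56-fold for PKM, 2.0-fold for PKLR and 1.67-fold for BPGM. For comparison, of the 13199 genes measured on these arrays 8.2% were at least 1.5-fold lower and 7.49% at least 1.5-fold higher. The median log2 difference of the 10 genes was -1.04, beside 0.00 over all genes measured, where a log2 difference of -1 is a 2-fold decrease. Here and below a difference is nilotinibR minus parental after background correction with an offset of 50 and quantile normalization, and a gene is the mean of its kept probes. In bulk RNA, fewer cells that express a gene and less of its RNA per cell cannot be told apart.

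**Figure D1:**
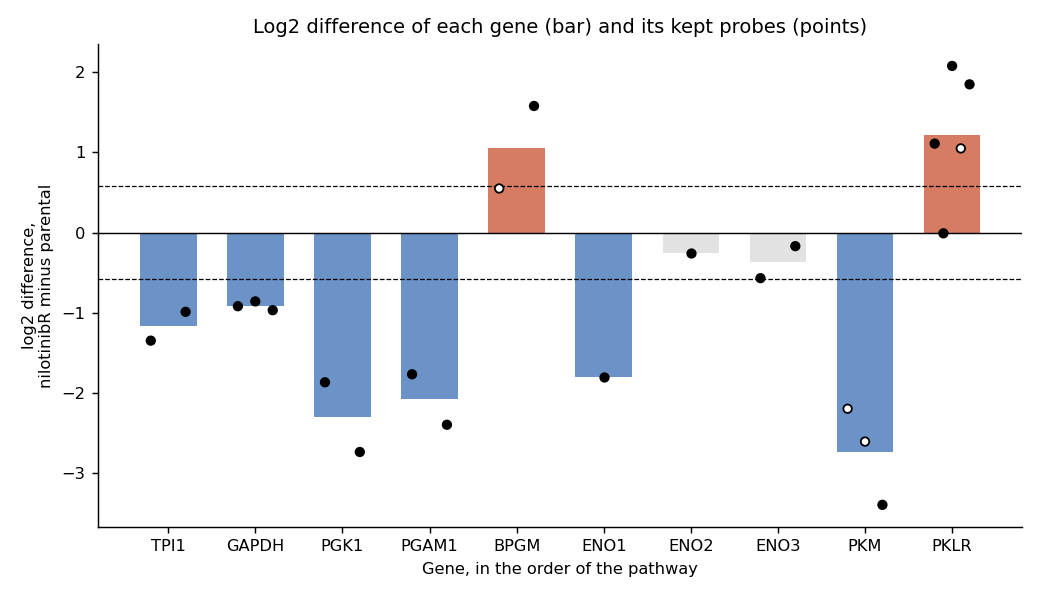
Log2 difference, nilotinibR minus parental, of each gene as a bar and of each kept probe as a point, with the genes in pathway order on the x axis. Open points mark probes not above the dim probes on 1 of the arrays, blue and red bars genes past 1.5-fold (dashed lines), and grey bars ENO2 and ENO3, which lay between the lines at -0.26 and -0.37.

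The same split was seen probe by probe. A probe was kept when it lay above the level of dim probes, an intensity of 120 on the parental and 119 on the nilotinibR array, on at least 1 array, which held for 23 of the 24 probes. All 13 probes of the 6 common enzymes were lower past 1.5-fold, by 1.82-fold to 10.5-fold. Of the 7 kept probes of BPGM and PKLR, 5 were higher past 1.5-fold and the other 2 did not pass. A probe kept through 1 array alone had to be higher there, which was so for 2 PKM probes, 1 PKLR probe and 1 BPGM probe, and these counts are a description. Among the 19 probes above the dim level on both arrays, 11 were lower and 4 higher past 1.5-fold. The 3 probes of ENO2 and ENO3 had log2 differences between -0.57 and -0.17 and did not pass. Over all 25617 kept probes of the array, 7.13% were at least 1.5-fold lower and 6.69% at least 1.5-fold higher. Probes of a gene share the RNA and the array, so they are repeated readings of 1 sample and not replicates.

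**Figure D2:**
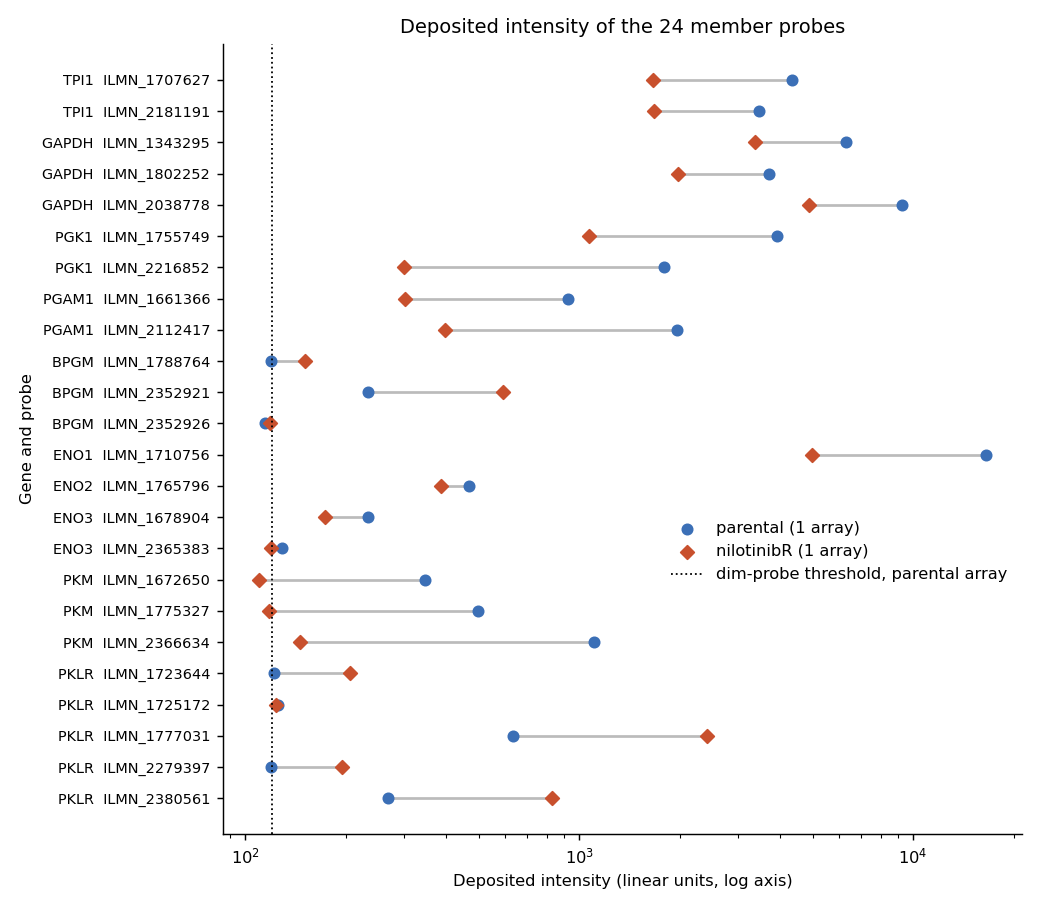
Deposited intensity (log axis) of the 24 probes on the parental array (circles) and the nilotinibR array (diamonds), with the dim-probe threshold of the parental array dotted. All 13 probes of TPI1, GAPDH, PGK1, PGAM1, ENO1 and PKM moved to the left in nilotinibR cells, and the PKLR probe from 634 to 2414 made the widest move to the right.

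The pyruvate kinase genes had the lowest and the highest log2 difference of the 10 genes, -2.74 for PKM and 1.22 for PKLR. Their promoters and those of PGK1 and BPGM are shown because these 4 genes are the ends of the pattern, 2 that were lower and 2 that were higher. Each is the 250 bases before an annotated start from RefSeq on GRCh38.p14, written 5′ to 3′ on the strand of the gene. The windows are chr1:155301439-155301688 (minus strand) for PKLR, chr15:72231191-72231440 (minus) for PKM, chrX:78103998-78104247 (plus) for PGK1 and chr7:134646603-134646852 (plus) for BPGM. Capitals mark ACGTG and GCGTG, cores of the hypoxia response element, and AGATAA and TGATAA, forms of the site of GATA factors, on either strand.
PKLR, upstream start: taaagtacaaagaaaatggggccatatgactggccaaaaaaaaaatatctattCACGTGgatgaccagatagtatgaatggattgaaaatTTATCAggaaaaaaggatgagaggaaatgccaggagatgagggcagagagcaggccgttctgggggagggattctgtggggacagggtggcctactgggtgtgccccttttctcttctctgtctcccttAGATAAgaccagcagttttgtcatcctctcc
PKM: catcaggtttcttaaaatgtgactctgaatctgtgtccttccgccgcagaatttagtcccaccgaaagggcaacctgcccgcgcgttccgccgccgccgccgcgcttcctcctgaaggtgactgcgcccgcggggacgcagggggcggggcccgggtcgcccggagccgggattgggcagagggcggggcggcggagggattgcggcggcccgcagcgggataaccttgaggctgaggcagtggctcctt
PGK1: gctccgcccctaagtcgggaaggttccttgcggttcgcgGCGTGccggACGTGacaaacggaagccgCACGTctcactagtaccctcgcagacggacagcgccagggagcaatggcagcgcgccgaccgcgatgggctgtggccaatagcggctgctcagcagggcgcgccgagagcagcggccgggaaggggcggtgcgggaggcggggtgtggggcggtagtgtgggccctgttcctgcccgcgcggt
BPGM: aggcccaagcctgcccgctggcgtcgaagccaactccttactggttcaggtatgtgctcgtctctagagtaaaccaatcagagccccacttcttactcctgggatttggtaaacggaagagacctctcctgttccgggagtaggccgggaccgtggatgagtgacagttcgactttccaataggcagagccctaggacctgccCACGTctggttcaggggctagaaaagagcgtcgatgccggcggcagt

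PKLR has separate starts for its red cell and its liver transcript, of which the red cell one lies upstream. The upstream PKLR window held AGATAA on the strand of the gene and TGATAA on the opposite one. It also held the E-box CACGTG, which reads as ACGTG from either strand, while the downstream window (chr1:155300953-155301202 for its 250 bases before the start) held none of these. The PGK1 window held ACGTG and GCGTG, BPGM held ACGTG once, and PKM held a GCGTG only in the 50 bases after its start, so that its printed bases carry no capitals. The upstream PKLR bases were also the poorest in G and C of the 4 printed, at 46%, beside 57.2% for BPGM, 68.4% for PKM and 71.2% for PGK1.

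Across the 13 windows that RefSeq gives for the 10 genes (250 bases before to 50 after a start), ACGTG was found in 6, of BPGM, ENO2, GAPDH, PGK1, PKLR and TPI1, and in 21.4% of all 35116 windows of the table. GCGTG was found in 5 of the 13 and 36.5% of all, CACGTG in 2 (GAPDH and PKLR) and 7.26%, AGATAA in 2 (PGAM1 and PKLR) and 10.3%, and TGATAA in 2 (ENO3 and PKLR) and 7.53%. The KLF1-like CCNCNCCC was found in 9 and in 56.2% of all, and TATAAA in none and in 11.5%. Genes that were lower and genes that were higher both held ACGTG. A match of these letters describes the window and not the binding of a factor.

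The first common enzyme is TPI1, which turns the second triose into the one that GAPDH uses. Its probe ILMN_1707627 gave a deposited intensity of 4354 on the parental and 1667 on the nilotinibR array, and ILMN_2181191 gave 3457 and 1679. Both probes were lower in nilotinibR cells, by 2.54-fold and 1.98-fold, and the gene by 2.25-fold (log2 difference -1.17).

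GAPDH, which oxidizes glyceraldehyde-3-phosphate and is the reference gene of the study's qPCR, was measured by 3 probes. They read 6286, 3701 and 9257 on the parental and 3371, 1984 and 4889 on the nilotinibR array. GAPDH had the smallest decrease of the 6 genes and probes close together, with log2 differences of -0.92, -0.86 and -0.97, or 1.89-fold for the gene.

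PGK1, the first ATP-making enzyme of the pathway and a textbook target of hypoxia-inducible factors, fell further. Its probes read 3901 and 1790 on the parental array against 1073 and 299 on the nilotinibR array. The decreases were 3.65-fold and 6.69-fold, and 4.94-fold for the gene (log2 difference -2.30). The brighter probe thus showed the smaller decrease, and both lay well past 1.5-fold.

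PGAM1, the mutase that leads from 3- to 2-phosphoglycerate, read 929 and 1964 on the parental and 301 and 398 on the nilotinibR array. Its probes were 3.40-fold and 5.29-fold lower, and the gene 4.24-fold (log2 difference -2.08). PGAM4, an intronless copy of PGAM1, was at least 2.54-fold lower over 4 probes. Its 3 bright probes had log2 differences of -1.51, -1.83 and -1.99, close to those of PGAM1, and the fourth read 122 on the parental array and was at background in nilotinibR cells. The probe sequences were not used here, so signal from PGAM1 and PGAM4 cannot be told apart, and copies of GAPDH, ENO1, PGK1 and TPI1 elsewhere in the genome may likewise share probes.

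ENO1, the enolase of most cells, rested on a single probe, ILMN_1710756. It read 16541 on the parental array, near the top of the range of the scanner values (21126), and 4968 on the nilotinibR array, which made it 3.48-fold lower (log2 difference -1.80). It was the brightest of the 24 probes on both arrays. Near the top of the range a difference may not register in full.

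Neither enolase of other tissues passed 1.5-fold. The ENO2 probe read 467 on the parental and 387 on the nilotinibR array, 1.20-fold apart. The ENO3 probes read 234 and 129 on the parental against 173 and 119 on the nilotinibR array, and the gene differed by 1.29-fold, with the second probe close to the level of dim probes on both. The change in ENO1 exceeded that in ENO2 by 2.90-fold and that in ENO3 by 2.70-fold, as differences of log2 differences of -1.54 and -1.43. The ENO3 readings lay near background and the parental ENO1 reading near the top of the range, and these differences were not tested.

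Markers of the tissues that give these isozymes their names were partly at background. Of 5 muscle markers, DES and MYL1 were measured while CKM, ACTA1 and MYH2 were not above the dim probes on either array, and the summed intensity of the kept probes of the list was 370 on the parental and 368 on the nilotinibR array. Of 5 neural markers, TUBB3, NEFL and STMN2 were measured while SYP and SNAP25 were dim on both, with sums of 454 and 407. Of 5 liver markers, ALB and SERPINA1 were measured while APOA1, TTR and APOB were dim on both, with sums of 302 and 315. These sums and those of the later marker lists are of deposited intensities with background still in them. A typical dim probe read 111 on the parental and 109 on the nilotinibR array, so close sums do not show like expression. None of the measured muscle, neural or liver markers passed 1.5-fold, and the neural tubulin gene TUBB3, with a log2 difference of -0.58, lay close to it. DES, MYL1, STMN2 and SERPINA1 lay near the level of dim probes, at log2 levels of at most 6.44, where a difference may not register.

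PKM, which makes pyruvate in most proliferating cells, had the largest decrease of the 10 genes. ILMN_2366634 read 1110 on the parental and 146 on the nilotinibR array, a 10.5-fold decrease with both readings above the dim probes. ILMN_1775327 read 497 and 118, and ILMN_1672650 read 346 and 110, so both were at the level of dim probes in nilotinibR cells. The deposited readings of these probes, with background still in them, stood in ratios of 4.2 and 3.14, and the normalized values gave at least 6.05-fold and at least 4.06-fold. For such a value the dim reading was replaced by the lowest level that any detected probe had on the same array, where that level was higher. The platform annotation ties each probe to another PKM transcript, and which transcripts a probe binds was not analysed here. The log2 difference of the gene was -2.74 after normalization. This value depended on the handling of the background, with 4.56-fold when none was subtracted and 11.2-fold with an offset of 16 in place of 50.

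PKLR, the pyruvate kinase of red cells and liver, moved the other way. ILMN_1777031 rose from 634 on the parental to 2414 on the nilotinibR array, 4.24-fold after normalization, and ILMN_2380561 rose from 268 to 829, or 3.62-fold. The dimmer ILMN_1723644 rose from 122 to 207, or 2.16-fold, and ILMN_2279397 read 119, below the threshold, and then 196, a ratio of 1.64 as deposited and at least 2.04-fold after normalization. The fifth probe, ILMN_1725172, read 125 and 124, just above the dim probes on both arrays, with a log2 difference of -0.01. Thus 4 of 5 probes were higher, and their order by fold followed their order by brightness on the nilotinibR array. The log2 difference of the gene was 1.22 after normalization, or 2.08 by its brightest probe.

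**Figure D3:**
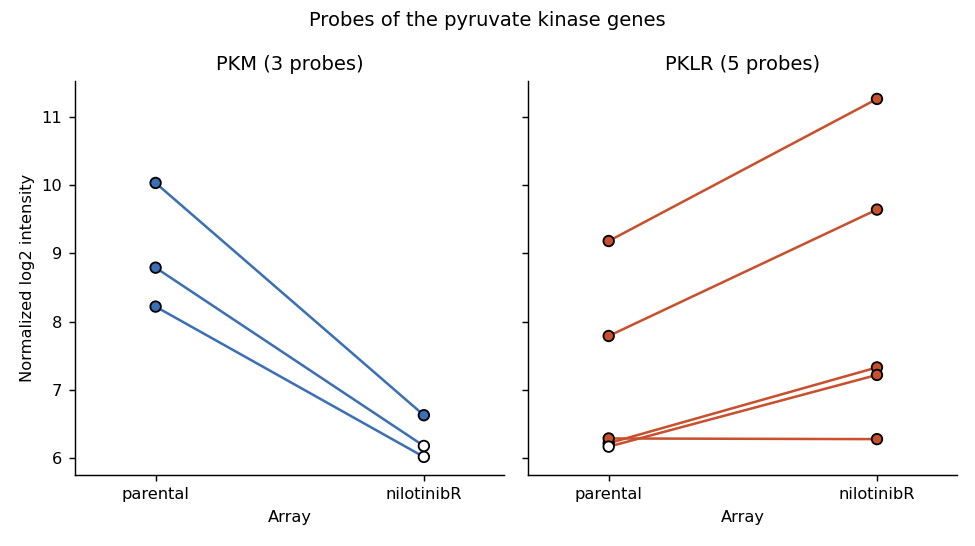
Normalized log2 intensity of the 3 PKM probes and the 5 PKLR probes on the parental and the nilotinibR array, with open circles for readings not above the dim probes. All 3 PKM lines fall, 2 of them to dim readings, while 4 PKLR lines rise and the fifth stays at 6.29 and 6.28.

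Set beside each other, the PKM and PKLR changes differed by -3.95 on the log2 scale, which is 15.5-fold, or at least 14.8-fold with dim readings at their bound, and by -3.22 without background correction. Over the 15 pairs of a PKM and a PKLR probe this difference was below 0 in all 15. With dim readings at their bound the normalized pairs ranged from 4.04-fold, for the PKM probe with the smallest decrease against the PKLR probe that did not move, to 44.7-fold for the brightest probe of each gene. PKM probes ILMN_1672650 and ILMN_1775327 were kept through the parental array alone, and PKLR probe ILMN_2279397 through the nilotinibR array alone. The filter set the direction of these probes, so the count over pairs that include them is a description. The pairs of ILMN_2366634 with the other PKLR probes had all readings above the dim probes, with differences from -5.48 to -3.39. The 15 pairs share probes and arrays and are not independent. This is a change in the balance between the genes, since the brightness of different probes does not rank the amounts of their RNA.

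BPGM, the synthase of 2,3-bisphosphoglycerate, was higher by its brightest probe, ILMN_2352921, which read 234 on the parental and 592.5 on the nilotinibR array (2.98-fold). ILMN_1788764 read 119, below the threshold, and then 152, a ratio of 1.27 as deposited and at least 1.44-fold after normalization. ILMN_2352926 was dim on both arrays at 115 and 119 and was left out. The call for BPGM therefore rested mainly on 1 probe. Set beside PGAM1, the related mutase of the common route, the change in BPGM was at least 8.79-fold apart. Of the proteins that also handle 2,3-bisphosphoglycerate, the phosphatase MINPP1 differed by 1.10-fold.

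**Figure D4:**
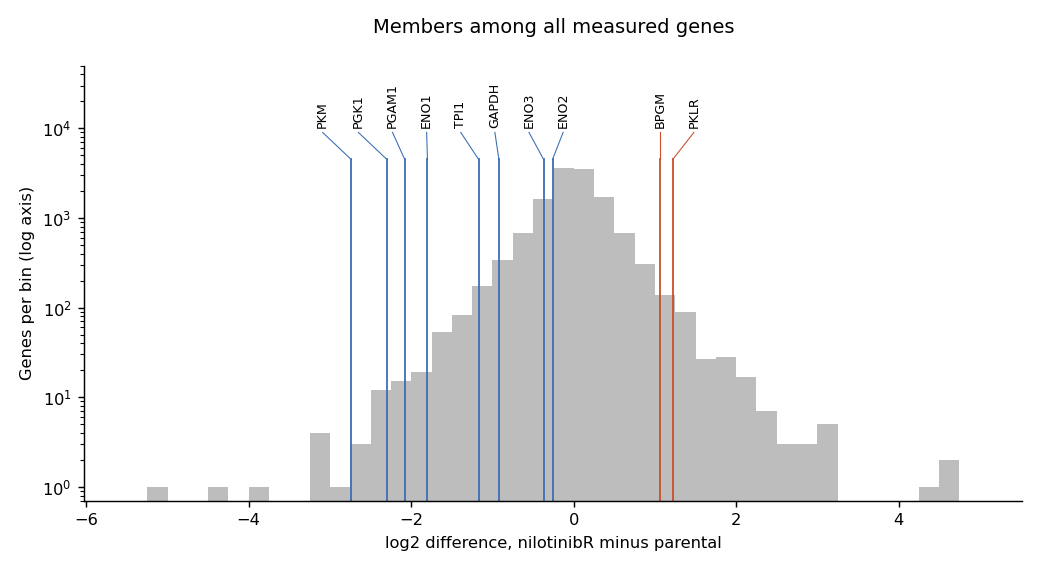
Number of genes (log axis) per bin of log2 difference, nilotinibR minus parental, over the 13199 genes measured, with the 10 genes marked by lines. PKM, PGK1, PGAM1 and ENO1 lie in the thin left tail, at -2.74, -2.30, -2.08 and -1.80, while ENO2 and ENO3 lie in the bulk of genes.

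Some genes of the steps before and after lower glycolysis were lower as well. Of 12 genes of upper glycolysis, from hexokinase to aldolase, 9 were measured, 4 were lower and none was higher past 1.5-fold, with a median log2 difference of -0.40. For this and the later counts, the shares over all genes measured were 8.2% lower and 7.49% higher past 1.5-fold. The aldolase gene ALDOC was 4.43-fold lower, the hexokinase gene HK2 at least 3.96-fold, the phosphoglucose isomerase gene GPI 3.25-fold and the aldolase gene ALDOA at least 1.85-fold. The phosphofructokinase genes did not pass, with PFKL at 1.32-fold, PFKP at least 1.13-fold and PFKM at 1.02-fold.

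Of 15 genes of pyruvate and lactate metabolism, 11 were measured, 3 were lower and none was higher, with a median of -0.33. LDHA, which turns pyruvate into lactate, was at least 3.31-fold lower, DLAT, a subunit of pyruvate dehydrogenase, 2.01-fold and the mitochondrial pyruvate carrier gene MPC1 1.63-fold. PDHA1, another subunit of the same complex, differed by 1.29-fold. LDHB, with a log2 difference of -0.58, lay close to 1.5-fold lower. The count of lower genes in this list was 4 with an offset of 16, by median or 75th percentile scaling and on the deposited values. By the brightest probe of a gene the count was 2. Of 7 gluconeogenic enzymes, 4 were measured and 1 passed, the glucose-6-phosphatase gene G6PC3 at 2.05-fold lower, and PCK1, FBP1 and FBP2 were dim on both arrays. Of the 7 relatives of the 10 genes, 4 were measured and PGAM4 alone passed.

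Levels of some known regulators were read on the same arrays. Of 10 listed, 9 were measured, of which MYC (3.37-fold) and the hypoxia-inducible factor gene EPAS1 (1.87-fold) were lower and TAL1 (3.69-fold) and KLF1 (2.80-fold), both erythroid transcription factors, were higher. HIF1A, whose protein is mainly controlled by oxygen-dependent degradation, differed by 1.05-fold over 3 probes, and GATA1 by 1.10-fold. The HIF1A levels, log2 6.47 on the parental and 6.55 on the nilotinibR array, lay near the array median of 6.16, where a difference may not register. All 5 factors listed for the splicing of PKM were measured and none passed 1.5-fold, although 1 was lower under stricter filters on dim probes and 3 were lower by the brightest probe of each gene. PTBP1, a repressor of the exon of the adult muscle form, was 1.41-fold lower. Whether any of these genes had a part in the changes of the glycolytic enzymes was not tested.

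K562 cells were recognizable on both arrays by their embryonic and fetal globins. Of 9 K562 and erythroid markers, 8 were on the array and all 8 were measured, with a summed intensity of 79482 on the parental and 97035 on the nilotinibR array. EPOR (3.89-fold), LMO2 (2.62-fold), TFRC (1.75-fold) and NFE2 (1.52-fold) were higher, while the globin genes HBG1, HBG2, HBE1 and HBZ differed by at most 1.06-fold. The globin probes, at log2 levels of 13.88 to 14.19, lay near the top of the range, where a difference may not register. EPOR, LMO2, TFRC and NFE2 shared the direction of PKLR and BPGM, and their part in that result was not tested. Of 9 lymphoid and myeloid markers, 6 were measured and 1 passed, CD3D at least 13.0-fold lower. The summed intensity of that list was 3265 on the parental and 1356 on the nilotinibR array, while CD3E and MPO were dim on both.

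**Figure D5:**
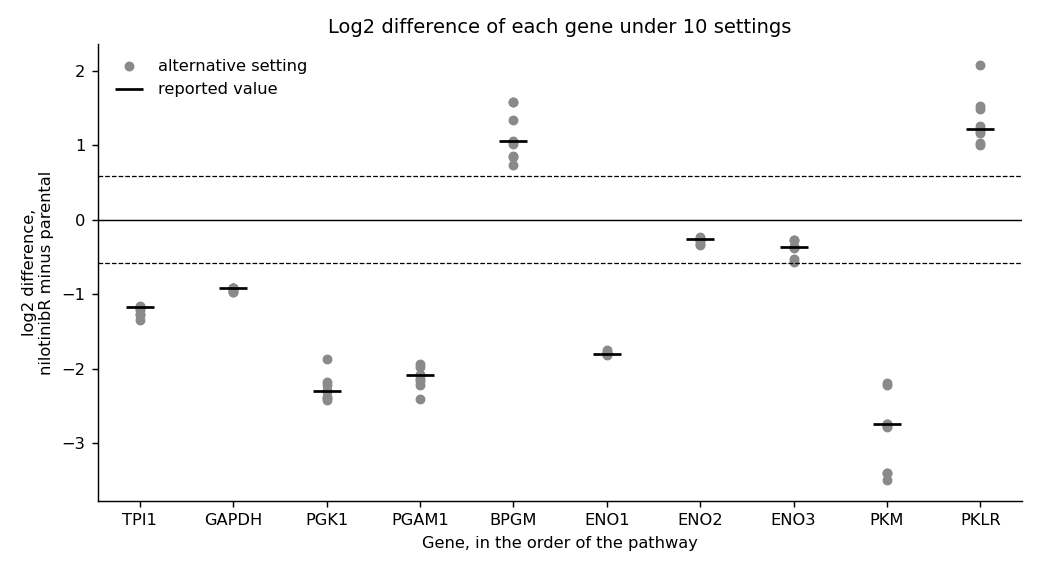
Log2 difference, nilotinibR minus parental, of each gene as reported (black bar) and under 9 alternative ways of processing the arrays (grey points), with dashed lines at 1.5-fold. Every gene kept its direction and its side of 1.5-fold under these settings, and PKM, PKLR and BPGM varied most, between -3.49 and -2.19, 1.00 and 2.08, and 0.74 and 1.58.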

How the data were processed

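Total RNA of parental and nilotinibR K562 cells was measured on 1 array each of the HumanHT-12v4 BeadChip type. The authors deposited intensities on a linear scale (88.2 to 22044), from which background had not been subtracted. The study's methods name GenomeStudio and robust multichip average, but do not tell which of their steps these intensities had gone through. Another table holds 4 columns, of signals and their detection p-values, whose names match no sample label, and it was not used. With limma 3.58.1 in R 4.3.3, intensities were corrected with normexp (offset 50), then quantile normalized, and log2 values were taken. The dim-probe threshold of an array was its one-sided 5% level for a normal background with the mode and lower spread of its probes (111 and 5.27 for parental, 109 and 5.76 for nilotinibR), and 47.6% and 46.9% of probes lay above them. Genes came from the platform annotation (1 symbol for 30113 probes, several for 8, none for 17202), updated through RefSeq, which held 30074 of the named probes. All 10 genes were matched to promoter windows. Proteins were not analysed here.

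The steps were tested on simulated data with changes planted in bright probes only, so changes of probes near background were not covered. The genes and lists were chosen with earlier results of these data known, and the list of other reference genes came after the values were seen. The rule for named genes took all 10 genes with their probes, the leading members of each list past 1.5-fold, and LDHA, KLF1, GATA1, MYC, HIF1A, PTBP1 and PGAM4. Other names were added for their role after their values were seen. With 1 array per condition precision is limited by the number of arrays, and no p-value is given. Alternatives changed the background step (left out, or with an offset of 16), the scaling (by the median or the 75th percentile), both of these together (deposited values on the log2 scale), the filter on dim probes in 3 ways, the summary by brightest probe, and the threshold (2-fold).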

Additional observations from a re-analysis of the deposited data

How the results depend on the processing

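No paired analysis was possible because each condition has a single array, so leaving out a replicate was not possible either. The 6 lower and 2 higher genes were counted alike under every alternative at 1.5-fold, and at 2-fold 5 were lower and 2 higher. The difference between the PKM and PKLR changes ran from -5.48 with the brightest probe of each gene to -3.22 without background correction, with or without normalization. Of 90 log2 differences of the 10 genes under an alternative, all 90 kept their direction and their side of 1.5-fold. Among the other lists, 95 of 100 counts stayed within 1.5 times the reported one. The exceptions were the splicing factors, with 1 lower when probes had to be above the dim probes on both arrays or above a stricter threshold and 3 lower by the brightest probe, and, at 2-fold, 1 lower regulator and 2 higher erythroid markers. Over all genes, an offset of 16 gave 1653 lower and 1571 higher, and 2-fold gave 366 and 321, against 1082 and 989. Median and 75th percentile scaling moved the median of all genes to -0.01 and -0.03. Readings near background limit PKM in nilotinibR cells and BPGM and PKLR in parental cells.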

Other observations

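GAPDH is widely used as a reference, so other genes in that use were read on the same arrays, from a list written after the GAPDH values were seen. Of 12 such genes, 9 were measured, 1 was at least 1.5-fold lower and 1 at least 1.5-fold higher. Over all genes measured, 8.2% were lower and 7.49% higher by this fold. The actin gene ACTB was 1.92-fold lower, with its 3 probes between -1.0 and -0.91 on the log2 scale, and GUSB, a lysosomal glucuronidase, was 1.85-fold higher. TBP, a subunit of the basal transcription machinery, differed by 1.06-fold, the cyclophilin gene PPIA by 1.08-fold, SDHA by 1.10-fold and B2M by 1.17-fold. GAPDH, at 1.89-fold lower, and ACTB were the ones lower past 1.5-fold among these, though the log2 difference of HPRT1 was -0.38 and GUSB passed in the other direction.

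Probes that the annotation ties to the same transcript did not always move together. ILMN_1777031 and ILMN_1725172 are both tied to the liver transcript of PKLR and had log2 differences of 2.08 and -0.01. The second of these probes read 125 on the parental and 124 on the nilotinibR array, near the level of dim probes, where a difference may not register. Under the stricter threshold on dim probes the log2 difference of PKLR was 1.52. The 3 probes tied to its red cell transcript had 1.11, 1.05 and 1.85. An annotated transcript does not show which transcripts a probe binds, so these values do not separate the forms. Over the 3413 genes with 2 or more kept probes, the median range between the log2 differences of a gene's probes was 0.24, and over the 8 of the 10 glycolytic genes with 2 or more it was 0.76. Most of the 8 also changed more than genes at large, and ranges were not compared at a like size of change. In 7 of these 8 all probes had the same sign, and PKLR was the exception through its near-background probe ILMN_1725172 alone.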
